A study of Homo sapiens with 19 samples.

Results

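Homologous recombination and Fanconi repair genes were followed in THP-1 cells, a human monocytic leukemia line, that had been differentiated with PMA and then given vit C or left untreated. The set held 33 of the 31033 gene names on the array. They were found by their gene name in the array design, with MRE11A and RAD51L1 as the names used there for MRE11 and RAD51B. Each gene was read from its brightest probe. Its value is the log2 of the scanner signal relative to the 75th percentile of the array, so that 1 unit is a doubling and values of different genes are not comparable as amounts.

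Homologous recombination repairs a broken DNA duplex from the intact sister copy. The MRE11, RAD50 and NBN proteins bind the ends, EXO1 trims them, BRCA1 and BRCA2 help to prepare the single strand for pairing, XRCC2 and the RAD54 proteins assist the search for the matching strand, and nucleases such as EME1 with its partner cut the joined intermediates. The Fanconi proteins handle crosslinks between the strands: a core complex attaches ubiquitin to FANCD2 and FANCI, which then direct the excision. ATM, ATR, CHEK1 and CHEK2 are the kinases that signal damage, and many of these genes are known to be transcribed most strongly in cells preparing for or passing through S phase.

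All cells received 30 nM PMA and a rest before vit C at 0.1 mM, and were harvested 8, 24, 48 and 96 h after its addition. UT cells gave 2, 3, 2 and 3 arrays at these times and vit C-treated cells gave 3, 2, 2 and 2. A gene was called where it differed by at least 1 on the log2 scale and its q, the p adjusted by Benjamini-Hochberg over all gene names, was 0.05 or lower in 1 limma fit of the 8 groups. THP-1 is a single line, so the arrays within a group are separate flasks and p-values describe the spread between flasks.

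The arrays lay on 4 slides, and no slide held UT and vit C-treated cells of the same time. All UT arrays at 8, 24 and 48 h and 1 at 96 h shared slide 1, and the vit C arrays at 8 and 24 h shared slide 2 with the other 2 UT arrays at 96 h and 1 vit C array at 48 h. The remaining vit C array at 48 h was on slide 3 and both at 96 h were on slide 4. Slide and treatment therefore cannot be told apart at a single time, whereas 24 h against 8 h was compared within slide 1 in UT cells and within slide 2 in vit C-treated cells. The 75th percentile of the signal ran from 290.2 to 625.3 on 17 arrays and was 786.5 and 902.3 on the vit C arrays at 96 h. Of 12 monocyte and macrophage markers, 10 were well above background on every array and only MRC1 was on none. Of 4 markers each, 1 of T cells, 1 of fibroblasts, 2 of epithelia and 2 of B cells were also well above background on all arrays, whereas CD3D of T cells, COL1A2 of fibroblasts, and TACSTD1 and CDH1 of epithelia were so on none. The summed B cell markers, in units of the 75th percentile, stood between 1.37 and 2.06 in UT cells and between 3.44 and 3.87 in vit C-treated cells at 8 h, between 1.83 and 2.78 and between 2.28 and 4.57 at 24 h, between 1.81 and 2.49 and between 3.63 and 4.94 at 48 h, and between 1.66 and 3.84 and between 1.5 and 1.78 at 96 h. The part of the B cell markers in the results was not tested. In bulk RNA, fewer cells that express a gene and less RNA per cell cannot be told apart.

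Of the 33 genes, 30 were well above background on all 19 arrays. XRCC3 was so on 18, BRCA2 on 17 and BRIP1 on 7.

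Promoter sequence is shown for the 4 genes that were called between vit C-treated and UT cells, BRCA2, EME1, FANCB and BLM, since the results turn on them. Each stretch is the 150 bases that end at the base before the annotated start, on the gene's own strand, from RefSeq on GRCh38.p14. They lie at chr13:32315358-32315507, chr17:50373079-50373228, chrX:14873070-14873219 (minus strand) and chr15:90717196-90717345. Capitals mark exact matches, on either strand, to the letters searched: the E2F-type words TTTCCCGC, TTTGGCGC, TTTCGCGC and TTTGCCGC, the CHR word TTTGAA and the CCAAT box.
BRCA2: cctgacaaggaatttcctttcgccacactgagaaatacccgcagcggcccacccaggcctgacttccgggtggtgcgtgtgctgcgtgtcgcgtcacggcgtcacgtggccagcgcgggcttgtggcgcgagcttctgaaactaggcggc
EME1: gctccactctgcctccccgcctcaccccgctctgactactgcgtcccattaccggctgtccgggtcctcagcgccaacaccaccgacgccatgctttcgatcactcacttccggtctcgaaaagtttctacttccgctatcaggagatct
FANCB: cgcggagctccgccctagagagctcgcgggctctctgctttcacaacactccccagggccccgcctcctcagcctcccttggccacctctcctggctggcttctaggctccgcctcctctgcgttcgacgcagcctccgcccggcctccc
BLM: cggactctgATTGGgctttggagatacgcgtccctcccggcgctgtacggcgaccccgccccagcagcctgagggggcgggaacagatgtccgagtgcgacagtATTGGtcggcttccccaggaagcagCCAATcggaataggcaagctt

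The BLM stretch held the CCAAT letters at 3 places, and none of the searched letters stood in the other 3 stretches. Across 300-base windows, from 250 bases before the start to 50 after it, the table held 30 of the 33 genes. NBN, RAD54B and FANCI had no entry. E2F-type letters stood in 7 of the 30 (23.3%), against 3.33% of the 27303 human promoters of that length. CCAAT stood in 12 (40%, against 35.7%) and TTTGAA in 3 (10%, against 15.4%). These are matches of letters, listed without a test. The E2F-type matches are given with 10 bases on each side because their carriers can be set beside the time courses; capitals mark the match.
EXO1, chr1:241848198-241848225: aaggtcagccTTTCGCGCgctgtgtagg
XRCC2, chr7:152676103-152676130, minus strand: ggcgttggtgGCGGGAAAgttgagtctc
FANCA, chr16:89816802-89816829, minus strand: ctacaccgcgGCGGCAAAgccaaacgca
FANCC, chr9:95317738-95317765, minus strand: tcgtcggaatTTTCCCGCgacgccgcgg
FANCC, chr9:95317864-95317891, minus strand: cggggcttccGCGCGAAAccgggaacac
FANCD2, chr3:10026425-10026452: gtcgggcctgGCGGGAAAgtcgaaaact
TOPBP1, chr3:133661931-133661958, minus strand: cgcgcggttgGCGCGAAAgtcggttccc
MSH6, chr2:47783138-47783165: tccccccagaTTTCCCGCcagcaggagc

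To ask how the repair genes behaved as the cultures aged, UT cells at each later time were compared with UT cells at 8 h. At 24 h none of the 33 genes was called, against 1.06% of all genes called higher and 1.08% called lower, with 5 at an unadjusted p under 0.05. At 48 h, 15 were called higher and none lower, against 4.44% of all genes called higher and 2.62% called lower. At 96 h, 20 were called higher and none lower, against 6.97% and 5.4%. Medians of the 33 were 0.12, 0.96 and 1.31 at the 3 later times, while those of all detected genes stayed at -0.03, -0.06 and -0.07.

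**Figure D1:**
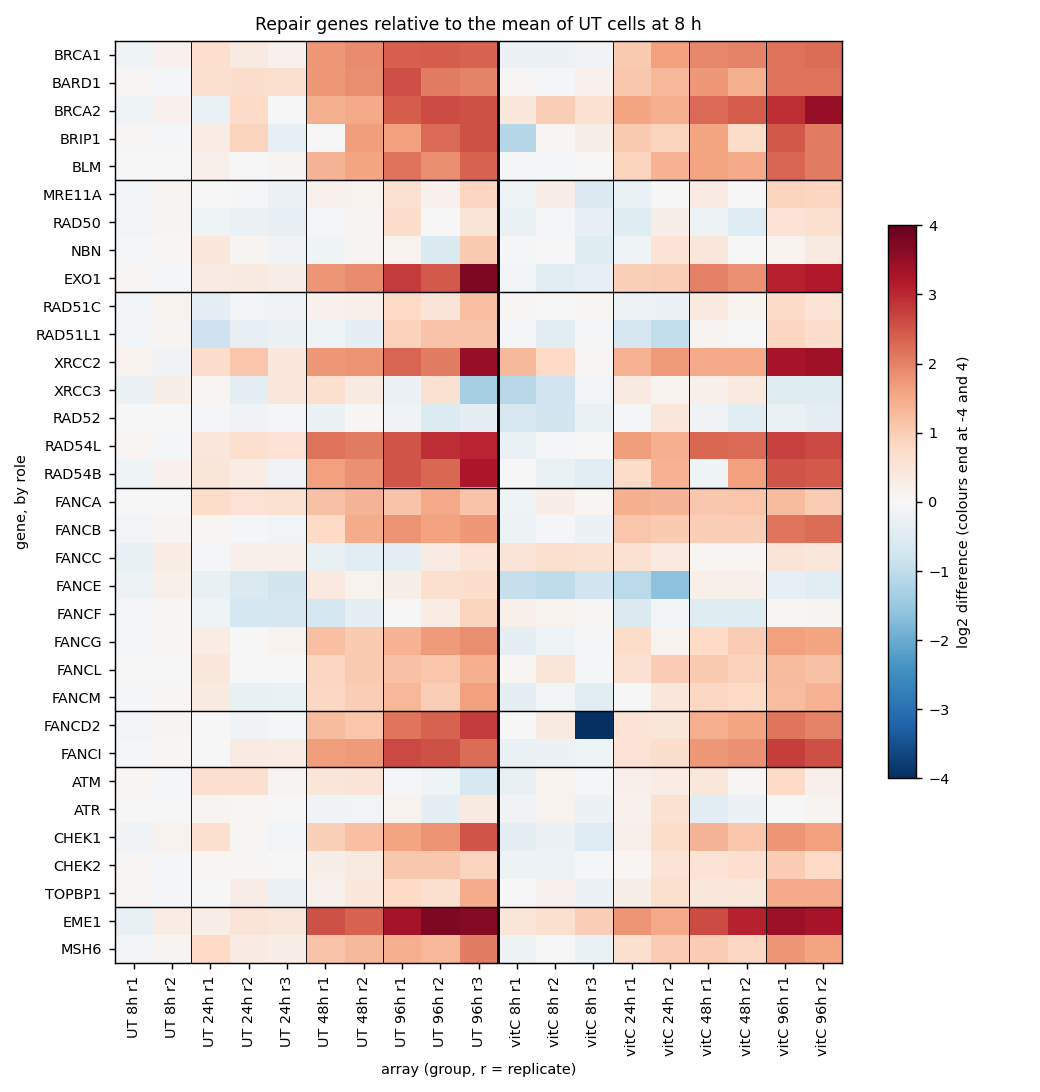
Log2 difference of each of the 33 repair genes (rows, by role) from the mean of UT cells at 8 h, on each of the 19 arrays (columns, by treatment and time). Most rows turn red from 48 h in both treatments, whereas RAD52, FANCC, FANCF, ATM and ATR stay pale, and FANCD2 has 1 dark blue cell in vit C-treated cells at 8 h.

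The BRCA group rose as a whole in UT cells, with all 5 genes called at 96 h. BRCA1, whose protein steers breaks toward recombination, stood at 0.59 and 0.94 at 8 h, at 1.44, 1.12 and 0.94 at 24 h, at 2.49 and 2.64 at 48 h, and at 3.14, 3.18 and 3.11 at 96 h. The 8 h arrays did not overlap with those at 48 or 96 h, and the rise from 8 to 96 h was 2.38 (SE 0.20, limma q = 1.31e-06). BARD1, the ring finger partner of BRCA1, rose by 2.21 (SE 0.19), and BLM, a helicase that dissolves joined duplexes, by 2.12 (SE 0.19). BRCA2, which acts on single-stranded DNA at the break, read -4.99 and -4.67 at 8 h, -5.09, -4.07 and -4.80 at 24 h, -3.41 and -3.32 at 48 h, and -2.41, -2.22 and -2.29 at 96 h. Its rise to 96 h was 2.53 (SE 0.27), and 1.12 with normexp, a background correction that adds an offset of 50 to every signal. BRIP1, a helicase that binds BRCA1, cleared background on no UT array before 96 h and on all 3 at 96 h, a level at least 2.75-fold higher than at 8 h. The BRIP1 call was lost with normexp, with signals floored at 20, and without UT replicate 1 or UT replicate 2 at 8 h, among other settings.

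Among the genes for break ends, EXO1 alone was called in UT cells. EXO1, the exonuclease that resects ends, rose by 2.99 (SE 0.27, limma q = 2.54e-06) from arrays at -0.67 and -0.76 to arrays at 2.09, 1.75 and 3.01. MRE11A, RAD50 and NBN, which form the complex that first binds the ends, differed by 0.55, 0.41 and 0.20 at 96 h and none passed. A second RAD50 probe, detected on all arrays, gave -0.92 for the same comparison, opposite in sign to the brightest probe. A second MRE11A probe, also detected on all arrays, gave 1.17, above the fold required.

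In the strand exchange group, RAD54L, RAD54B, XRCC2 and RAD51L1 rose by 2.84 (SE 0.18), 2.69 (SE 0.43), 2.62 (SE 0.39) and 1.07 (SE 0.21) at 96 h. RAD54L and RAD54B encode motors that move along DNA during strand exchange, and XRCC2 and RAD51L1 encode proteins that assist it. With normexp XRCC2 gave 1.41. The RAD51L1 call was lost with normexp (0.76), with the mean of its probes (0.39) and without UT replicate 1 at 8 h (0.96), among other settings. RAD51C gave 0.84 (limma q = 0.00796), below the fold required, and XRCC3 and RAD52 gave -0.32 and -0.36 and did not pass.

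Of 8 Fanconi core genes, 5 were called at 96 h. FANCB, FANCG, FANCM, FANCA and FANCL rose by 1.72, 1.65, 1.31, 1.27 and 1.23 in UT cells at 96 h, whereas FANCE, FANCF and FANCC gave 0.52, 0.39 and 0.18 without passing. With normexp FANCB gave 0.97 and was not called. A second FANCF probe, well above background on 17 arrays, gave -0.45 at 96 h and -1.62 at 48 h, where the brightest gave -0.53. For FANCC, 2 further probes well above background on all arrays read 1.24 and 1.51, so its probes differ in size. FANCI, the partner of FANCD2, rose by 2.48 (SE 0.17).

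FANCD2 needs 1 array set apart. In vit C-treated cells at 8 h it read 0.68, 1.01 and -4.71, while UT cells at 8 h read 0.54 and 0.76, and the array at -4.71 was replicate 3. A second FANCD2 probe read -1.74, -2.09 and -2.09 on those 3 vit C arrays, and did not show the drop. With that array in the fit, the UT rise of FANCD2 from 8 to 96 h was 2.44 with a q of 0.171. Without it, the rise was 2.44 (SE 0.20) with a limma q of 2.77e-06, and UT cells at 48 h also passed (1.19, q = 0.00429). The brightest probe on the other UT arrays read 0.63, 0.52 and 0.56 at 24 h, 1.90 and 1.77 at 48 h, and 2.79, 3.01 and 3.46 at 96 h.

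Among the checkpoint genes, CHEK1 and CHEK2 rose, and ATM, ATR and TOPBP1 were not called. CHEK1, the kinase that ATR activates, stood at 0.65 and 0.92 at 8 h, at 1.42, 0.84 and 0.67 at 24 h, at 1.75 and 1.98 at 48 h, and at 2.37, 2.57 and 3.29 at 96 h, a rise of 1.96 (SE 0.28). CHEK2, the corresponding target of ATM, rose by 1.00 (SE 0.17), at the threshold, and its call was lost with normexp (0.92), with quantile normalization (0.98), and without UT replicate 2 at 8 h or UT replicate 1 or 2 at 96 h (0.97 to 0.98), among other settings. ATM read -2.98 and -3.13 at 8 h and -3.10, -3.23 and -3.70 at 96 h (-0.29, SE 0.25, limma q = 0.493). Another ATM probe, well above background on all arrays, gave 1.22 for that comparison, so no direction is given for ATM. ATR read 1.95 and 2.00 at 8 h and 2.12, 1.58 and 2.33 at 96 h, and its arrays overlapped (0.03, limma q = 0.934). TOPBP1, which activates ATR, gave 0.97 (limma q = 0.0132), below the fold required.

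EME1, a nuclease subunit, also rose in UT cells. Its arrays stood at -4.17 and -3.55 at 8 h, at -3.60, -3.36 and -3.41 at 24 h, at -1.31 and -1.51 at 48 h, and at -0.52, -0.13 and -0.18 at 96 h. The rise of 3.58 (SE 0.23, limma q = 1.14e-07) is a 12-fold difference. With normexp it was 2.30, below EXO1 at 2.61 and RAD54L at 2.57. MSH6, which recognises mismatched bases, rose by 1.62 (SE 0.23). Of the 7 genes with E2F-type letters shown above, EXO1, XRCC2, FANCA and MSH6 were called at 96 h, FANCD2 was called without its low array, and TOPBP1 and FANCC were not. Of all 33 genes, 20 (60.6%) were called there.

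Among markers of other cell types, the fibroblast and T cell sums also lay higher at 96 h than at 8 h in both treatments. The summed signal of 4 fibroblast markers, in units of the 75th percentile, stood between 0.751 and 0.768 in UT cells at 8 h and between 1.47 and 3.38 at 96 h, and between 0.619 and 0.884 and between 5.47 and 6.01 in vit C-treated cells. Of the 4, 1 was well above background on all arrays and COL1A2 on none. The sum of 4 T cell markers stood between 0.139 and 0.161 at 8 h and between 0.204 and 0.227 at 96 h in UT cells, and between 0.16 and 0.167 and between 0.216 and 0.218 in vit C-treated cells, with CD3D above background on no array. The part of these markers in the results was not tested.

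Vit C-treated cells went through the same comparison against their own 8 h arrays. At 24 h, 7 genes were called higher (BRCA1, BARD1, BLM, EXO1, RAD54L, FANCA and FANCB), against 2.39% of all genes called higher and 1.89% called lower. At 48 h, 15 were called higher, against 6.61% called higher and 4.01% lower, and at 96 h 22, against 9.01% and 12.1%. The vit C arrays at 8 h were on slide 2 and those at 96 h on slide 4. Slide and time therefore cannot be told apart in that comparison. None was called lower at any of these times. Medians of the 33 were 0.83, 1.03 and 1.65, against 0.02, -0.07 and -0.01 over detected genes. With normexp the medians of the 33 were 0.45, 0.75 and 1.14, and BLM and FANCB were not called at 24 h. Further FANCA probes, well above background on all arrays, gave 0.84 and 1.04 at 24 h, against 1.33 for the brightest.

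The sets called in the 2 treatments shared most members at the later times. At 48 h, 13 genes were called in both, 86.7% of the UT set and 86.7% of the vit C set, and at 96 h 19 were, 95% of the UT set and 86.4% of the vit C set. XRCC2 and RAD54B were called at 48 h in UT cells alone, and FANCE and FANCM in vit C-treated cells alone. With normexp the XRCC2 and FANCM calls were lost. Another RAD54B probe, well above background on 8 arrays, gave 1.63 in UT and 2.56 in vit C-treated cells at 48 h. At 96 h, RAD51L1 was called in UT cells alone, and MRE11A, FANCD2 and TOPBP1 in vit C-treated cells alone. The MRE11A call was lost with normexp and with the mean of its probes, among other settings. Its second probe, detected on all arrays, gave 1.17 in UT and 1.15 in vit C-treated cells. FANCD2 was called in both treatments at 48 and 96 h without its array at -4.71. For none of these genes was the vit C effect called at that time. Whether the change from 8 h to 48 or 96 h differed between the treatments was not tested on its own, so such a difference is not shown. RAD50, NBN, RAD51C, XRCC3, RAD52, FANCC, FANCF, ATM and ATR, 9 genes, were called in no comparison over time.

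FANCD2 in vit C-treated cells again rested on the array at -4.71. Its change from 8 h was 2.17, 3.18 and 3.72 at 24, 48 and 96 h, and 0.32, 1.33 and 1.87 without that array, of which the last 2 passed (limma q = 0.00139 and 5.7e-05). Other FANCD2 probes, well above background on 19 and 16 arrays, gave 0.86 and 2.32 at 96 h. Its vit C arrays read 1.2 and 1.13 at 24 h, 2.10 and 2.24 at 48 h, and 2.79 and 2.64 at 96 h.

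The counts of calls over time differed most between the treatments at 24 h. From 8 to 24 h no repair gene was called in UT cells and 7 were in vit C-treated cells, each change being measured within 1 slide. BRCA1 changed by 0.41 (SE 0.20) in UT cells and by 1.55 (SE 0.20) in vit C-treated cells. FANCB changed by -0.02 (SE 0.19) and by 1.26 (SE 0.19), and RAD54L by 0.56 (SE 0.18) and by 1.66 (SE 0.18). With only the arrays of slide 2, the same 7 genes were called.

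**Figure D2:**
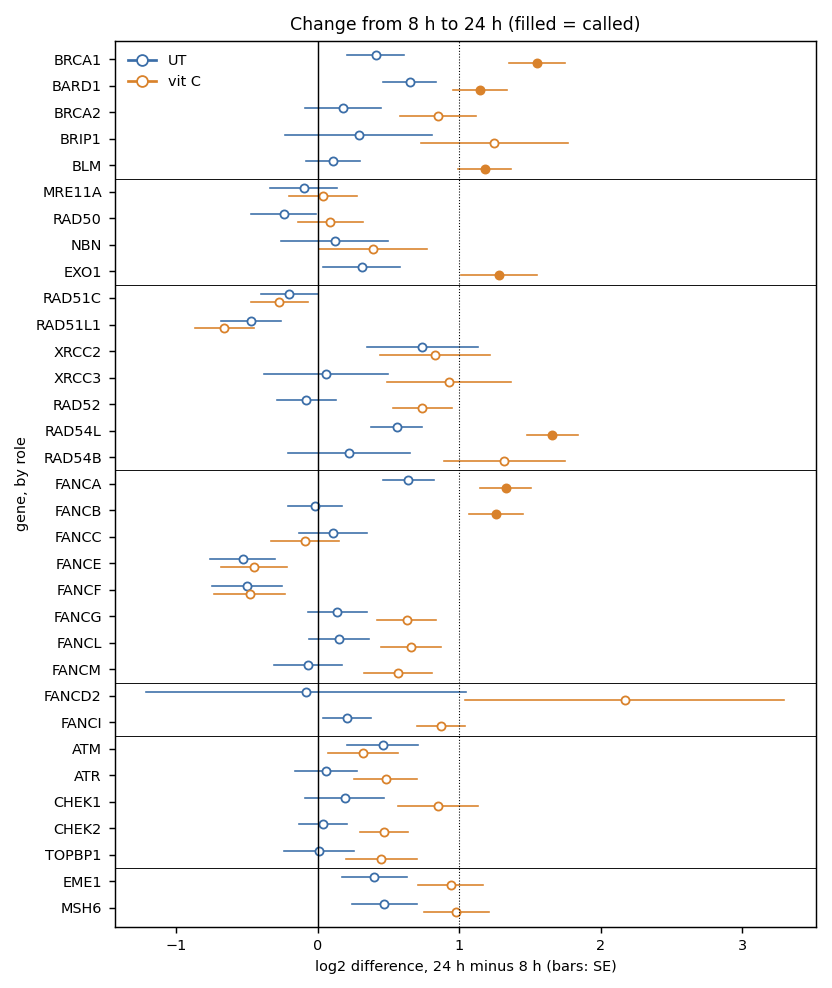
Change from 8 h to 24 h on the log2 scale (x axis) for each repair gene (y axis, by role) in UT cells (blue) and vit C-treated cells (orange), with bars of 1 SE and filled points for called genes. No blue point is filled and 7 orange points are; the long bars of FANCD2 come from its 1 array at -4.71.

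The difference between these changes was tested directly and fell short of the threshold. For the vit C effect at 24 h minus that at 8 h, no repair gene was called in the limma fit, against 0.0226% of all genes called higher and 0% called lower, and 8 of the 33 had an unadjusted p under 0.05. FANCB gave 1.29 (SE 0.27, limma q = 0.19), BRCA1 1.14 (SE 0.28, q = 0.294), RAD54L 1.1 (SE 0.26, q = 0.254) and BLM 1.07 (SE 0.27, q = 0.295). The median of the 33 was 0.51, with 29 above 0, against a median of 0.06 over detected genes. Against the effect at 48 h the median difference was 0.45 (0.29 with normexp), with 26 above 0, and against that at 96 h it was 0.36, with 28 above 0, both against 0.04 over detected genes. None of the 33 was called in these either, against 0.0193% of all genes called higher and 0.0709% called lower for 48 h and 0.528% and 0.487% for 96 h, with 10 and 9 at an unadjusted p under 0.05. An F test of all differences between the 4 times passed for none of the 33, against 1.25% of all genes, and 7 had an unadjusted p under 0.05. The smallest q values of that F test were 0.0555 for FANCB and 0.0806 for RAD54L.

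Vit C-treated cells were then set against UT cells at each time. At 8 h no repair gene was called, against 0.222% of all genes called higher and 0.193% called lower, and 5 had an unadjusted p under 0.05. The median of the 33 was -0.17, with 24 below 0, against -0.09 over detected genes. EME1 read -3.37, -3.23 and -2.88 in vit C-treated cells against -4.17 and -3.55, and its treated arrays lay above the untreated ones. FANCB read -3.81, -3.69 and -3.84 against -3.72 and -3.48, and BLM 0.32, 0.29 and 0.33 against 0.33 and 0.38. BRCA1 read 0.53, 0.53 and 0.62 against 0.59 and 0.94. The arrays of FANCB and BRCA1 overlapped, and those of BLM met at 0.33. CHEK1 lay lower, at 0.40, 0.54 and 0.26 against 0.65 and 0.92. ATM read -3.36, -2.92 and -3.09 against -2.98 and -3.13, and ATR 1.82, 2.11 and 1.73 against 1.95 and 2.00, which overlapped for both.

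At 24 h, 4 of the 33 genes were called higher and none lower, against 0.69% of all genes called higher and 0.522% called lower. The median of the 33 was 0.38 and 28 were above 0, against a median of -0.01 over detected genes. Arrays did not overlap and lay higher for 16 of the 33, against 12.2% of all genes, and lower for 1, FANCE, against 18.1%.

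BRCA2 read -5.09, -4.07 and -4.80 in UT cells at 24 h and -3.24 and -3.38 in vit C-treated cells. The treated arrays lay above all untreated ones, and the group means differed by 1.34 (SE 0.27, limma q = 0.0247). Only 1 of the 3 UT arrays was well above background for BRCA2, so the UT level, and with it the size of the difference, is poorly measured.

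EME1 read -3.60, -3.36 and -3.41 in UT cells and -2.10 and -2.34 in vit C-treated cells, which did not overlap. The difference was 1.24 (SE 0.23, limma q = 0.0163).

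FANCB, a core subunit encoded on the X chromosome, read -3.51, -3.67 and -3.70 in UT cells against -2.48 and -2.55. Replicates of either group spread over less than the gap, and the difference was 1.11 (SE 0.19, limma q = 0.0105).

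BLM read 0.57, 0.37 and 0.45 in UT cells against 1.25 and 1.73. The treated arrays were both higher but differed from each other by more than the UT arrays did, and the difference was 1.03 (SE 0.19, limma q = 0.0159).

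**Figure D3:**
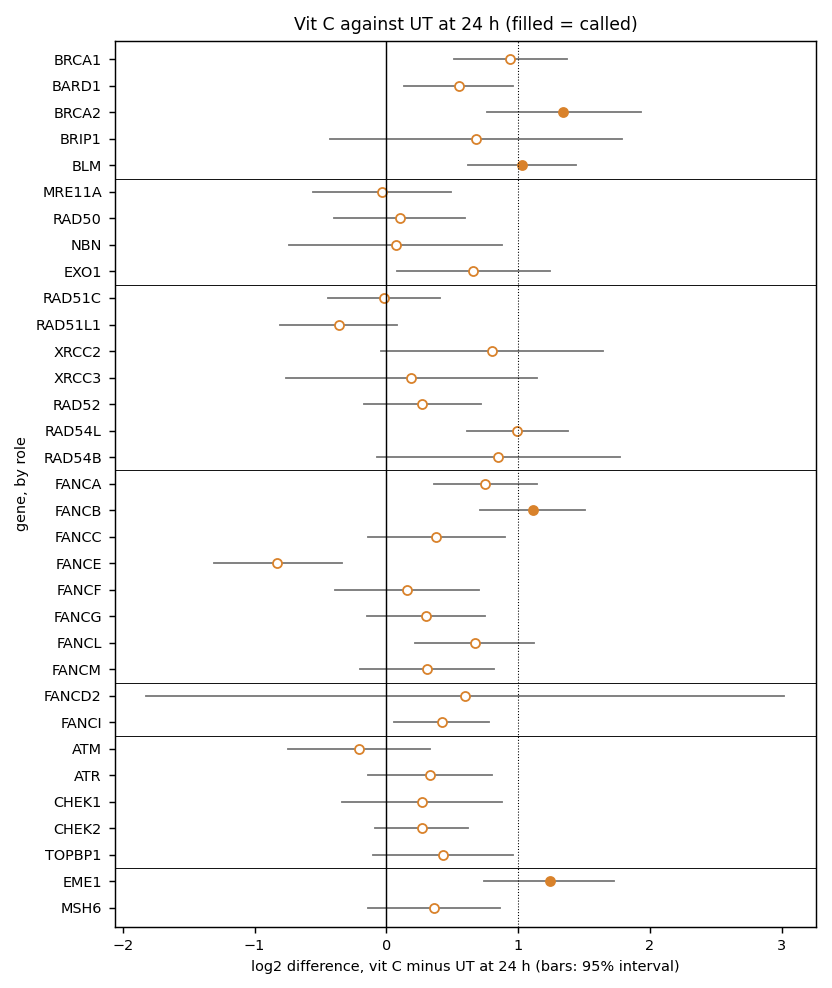
Log2 difference between vit C-treated and UT cells at 24 h (x axis) for each repair gene (y axis, by role), with 95% intervals and filled points for called genes. The dotted line marks a difference of 1; BRCA2, BLM, FANCB and EME1 are filled, RAD54L and BRCA1 lie just under the line, and FANCE is the farthest to the left.

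Just under the fold required were RAD54L at 0.99 (SE 0.18, limma q = 0.0148) and BRCA1 at 0.94 (SE 0.20, q = 0.0329), and FANCA gave 0.75 (SE 0.18, q = 0.0562). Further FANCA probes, well above background on all arrays, gave 0.37 and 0.33. BRCA1 read 1.81 and 2.41 in vit C-treated cells against 1.44, 1.12 and 0.94. FANCD2 gave 0.60 (q = 0.814), and 0.60 (SE 0.20, q = 0.183) without the array at -4.71, while its other probes gave 1.12 and 0.22. Another XRCC2 probe, well above background on 10 arrays, gave 1.43 against 0.80 for the brightest, and another RAD54B probe, on 8 arrays, gave -0.88 against 0.85. No q was computed for these probes. CHEK1 read 0.98 and 1.52 against 1.42, 0.84 and 0.67, and its arrays overlapped. ATR read 2.15 and 2.57 against 2.09, 2.05 and 1.95 (0.33, q = 0.446), and ATM -2.85 and -2.75 against -2.42, -2.41 and -2.96 (-0.21, q = 0.7), where its other detected probe gave 0.24. Genes at the break end, MRE11A, RAD50 and NBN, gave -0.03, 0.10 and 0.07.

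At 24 h the summed fibroblast markers stood between 1.18 and 1.57 in UT and between 2.24 and 2.74 in vit C-treated cells, and the 12 monocyte and macrophage markers between 613 and 685 and between 555 and 658. The 75th percentile of the signal ran from 290.2 to 456.2 on the UT arrays and was 371.3 and 561.8 on the treated ones. The part of these differences in the results was not tested.

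The calls at 24 h depended on single arrays and were lost with normexp background correction. Without vit C replicate 2 at 24 h none of the 33 was called, without vit C replicate 1 BRCA1 and BLM were, and leaving out a UT array at 24 h gave 3 or 4. The genes behind the last counts changed. BRCA2 was lost without UT replicate 1 or 3, BLM without UT replicate 2 or 3, and EME1 without UT replicate 1. FANCB stayed called, so some of these counts include other genes. On the scanner's linear scale, UT signals at 24 h were 8.5 to 27.1 for BRCA2, 23.9 to 44.3 for EME1 and 24.5 to 35.8 for FANCB, and 430 to 590 for BLM. With normexp background correction, the differences of these genes were 0.13, 0.43, 0.37 and 0.84, and none was called. Its offset of 50 is larger than every UT signal of BRCA2, EME1 and FANCB at 24 h. The offset alone shrinks their log2 differences, so normexp cannot decide whether those differences hold. With signals floored at 20 instead, BRCA2, EME1, FANCB and BLM all stayed called.

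At 48 h no repair gene was called, against 1.61% of all genes called higher and 1.22% called lower, with 2 at an unadjusted p under 0.05. The median was 0.03, and 19 were above 0. The 9 genes whose arrays lay apart and higher were matched by 9 lower, against 22% and 28.7% of all genes. BRCA1 read 2.70 and 2.74 against 2.49 and 2.64, and BLM 1.94 and 1.86 against 1.70 and 1.92. EME1 read -1.24 and -0.79 against -1.31 and -1.51. The untreated arrays of FANCB, at -2.79 and -2.13, lay on either side of the treated ones at -2.63 and -2.62. CHEK1 read 2.14 and 1.89 against 1.75 and 1.98, ATM -2.59 and -3.02 against -2.58 and -2.54, and ATR 1.55 and 1.75 against 1.82 and 1.87. CHEK1 overlapped, and the treated arrays of ATR lay lower. Those of ATM all but met, and its other detected probe gave 0.34 against -0.24 for the brightest, so no direction is given. RAD54B had the largest difference, -1.01 (SE 0.47, limma q = 0.313), and its treated arrays stood at -1.45 and 0.39. The UT mean was 0.48, near the second of these. Without that array, vit C replicate 2, RAD54B was called lower, a call that rests on 1 treated array assumed to vary like the other groups. Another RAD54B probe, well above background on 8 arrays, gave 0.38.

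At 96 h none was called, against 1.72% of all genes called higher and 5.32% called lower, with 5 at an unadjusted p under 0.05. The median was 0.01. FANCE, a core subunit that contacts FANCD2, read 4.91 and 4.78 in vit C-treated cells against 5.47, 5.88 and 5.96 (-0.92, SE 0.23, limma q = 0.0299), below the fold required, and was called without UT replicate 1 at 96 h. XRCC2 was called higher without UT replicate 3 at 96 h. FANCB read -1.46 and -1.37 against -1.79, -2 and -1.87, and its treated arrays lay higher. EME1 read -0.42 and -0.56 against -0.52, -0.13 and -0.18, BLM 2.68 and 2.42 against 2.53, 2.20 and 2.70, and CHEK1 2.55 and 2.43 against 2.37, 2.57 and 3.29. ATR read 1.99 and 2.07 against 2.12, 1.58 and 2.33. The arrays of these 4 genes overlapped, whereas the treated arrays of BRCA1 lay lower, at 2.93 and 2.99 against 3.14, 3.18 and 3.11. ATM read -2.25 and -2.84 against -3.10, -3.23 and -3.70 (0.80, q = 0.0597), and its other detected probe gave -0.25. Probes other than the brightest passed a difference of 1 for RAD50, with 1.36 at 96 h and 1.08 at 48 h against 0.20 and -0.37 for its brightest, and for FANCM, with 1.37 at 96 h against 0.01. A further FANCM probe gave 0.20 at 96 h, and no q was computed for these probes.

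**Figure D4:**
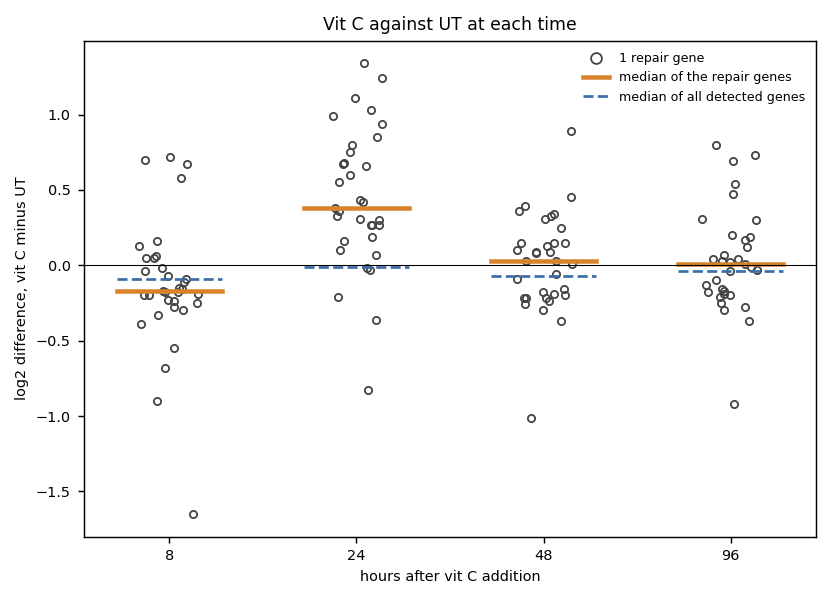
Log2 difference between vit C-treated and UT cells (y axis) at each time (x axis, drawn evenly spaced and not to scale), with 1 circle per repair gene, the median of the 33 in orange and the median of all detected genes as a dashed blue line. The orange median is -0.17, 0.38, 0.03 and 0.01 at 8, 24, 48 and 96 h.

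Averaged over the 4 times, no repair gene reached the fold required, against 1.75% of all genes called higher and 1.02% called lower, and 8 had an unadjusted p under 0.05. A q of at most 0.05 at any fold was found for 5 of the 33, against 13.2% of all genes in either direction, a share near the background. BRCA2 was higher by 0.90 (SE 0.14, limma q = 0.00092), with arrays that did not overlap at any of the 4 times: -4.41, -3.84 and -4.23 against -4.99 and -4.67 at 8 h, -2.55 and -2.40 against -3.41 and -3.32 at 48 h, and -1.88 and -1.35 against -2.41, -2.22 and -2.29 at 96 h. Also higher on average were EME1 at 0.53 (SE 0.12, limma q = 0.00966), FANCC at 0.43 (SE 0.12, q = 0.0364) and FANCB at 0.31 (SE 0.10, q = 0.0477). With the slide as a random block the q was 0.00211 for BRCA2, 0.0194 for EME1, 0.0716 for FANCC and 0.0718 for FANCB. Slide and treatment largely coincide and the correlation within slides was 0.036, so that block cannot separate a slide effect from the average. With normexp the average was 0.28 for BRCA2 (q = 0.04), 0.15 for EME1 (q = 0.218) and 0.15 for FANCB (q = 0.186). The size for FANCC depended on the probe: its brightest probe gave 0.58, 0.38, 0.45 and 0.30 at 8, 24, 48 and 96 h, another gave 2.28, 1.55, 1.81 and 0.65, and the last gave -0.10, 0.76, 0.38 and 0.05, all well above background on all 19 arrays.

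FANCE was the only gene of the 33 with a q of at most 0.05 that was lower on average, by -0.68 (SE 0.12, q = 0.00174). It read 4.32, 4.22 and 4.49 in vit C-treated cells against 5.03 and 5.46 at 8 h, and 4.18 and 3.61 against 4.96, 4.68 and 4.52 at 24 h. At 48 h the treated arrays, 5.45 and 5.45, lay among the untreated ones at 5.62 and 5.40.

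**Figure D5:**
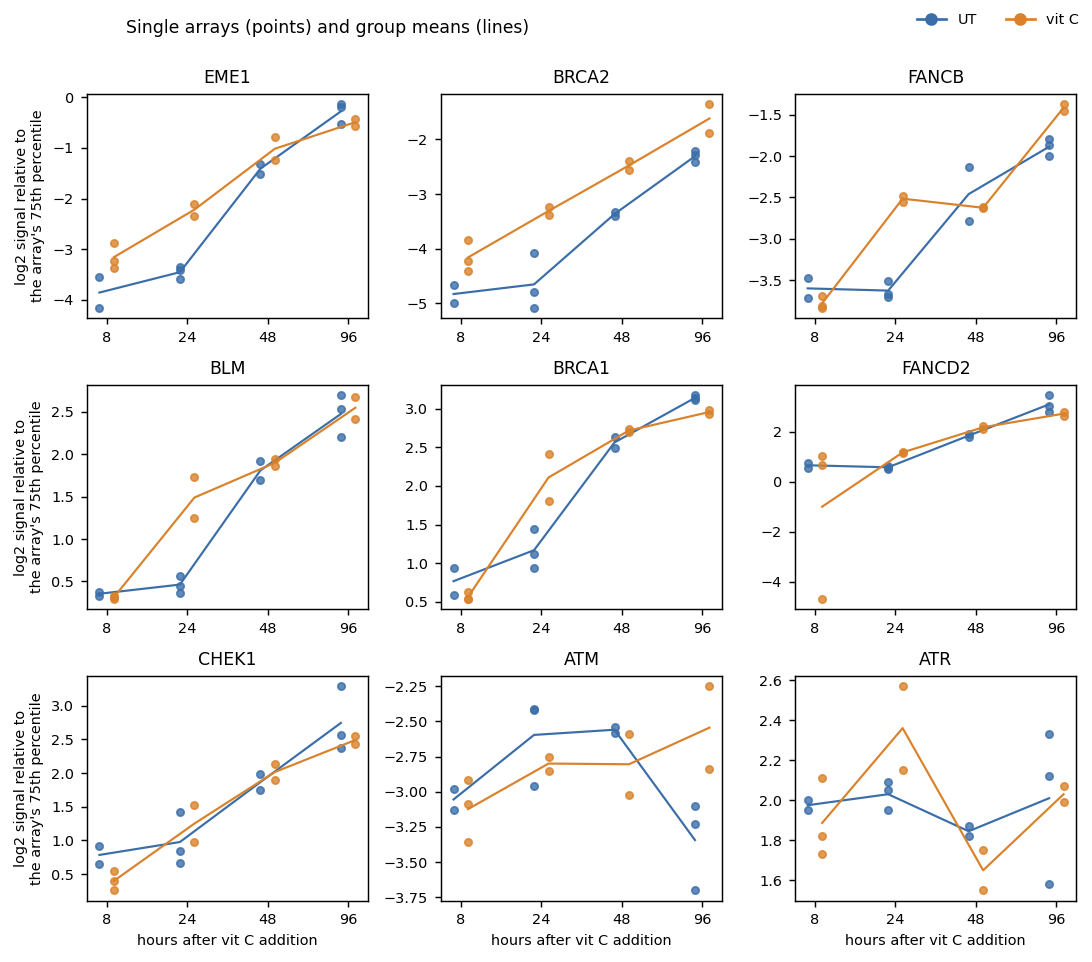
Normalized log2 signal (y axis) of 9 repair genes at 8, 24, 48 and 96 h (x axis, drawn evenly spaced and not to scale), with single arrays as points and group means joined by lines, UT in blue and vit C in orange. BRCA2 lies higher in vit C-treated cells at every time, BLM and FANCB part at 24 h and overlap at 48 h, and ATM and ATR show no common rise.

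Genes that work beside this set were read in the same fits. Of 32 DNA replication genes, 2 were called higher at 24 h, GINS2 (1.14), a subunit of the replicative helicase complex, and CDC7 (1.11), the kinase that triggers origins to fire, and 31 were above 0 with a median of 0.54. From 8 to 24 h, 14 of the 32 were called higher in vit C-treated cells and none in UT cells. The direct test of that difference, the effect at 24 h minus that at 8 h, called none of the 32 (median 0.69), so a difference between the treatments is not shown for these times. The effect at 24 h minus that at 48 h and minus that at 96 h called 1 gene each, GINS2, higher by 1.41 in both. None of 24 mitosis genes was called at 24 h, where their median was 0.24, or at 48 h, where it was 0.63 and all 24 were above 0. Another 26 genes of homologous recombination and the Fanconi pathway had a median of 0.22 at 24 h, with 20 above 0 and none called. The 12 genes of the ATR clamp and damage sensors had a median of 0.29, the 9 end joining genes 0.09 and the 6 other mismatch repair genes 0.21, with none called at 24 h. CLSPN, the adaptor between ATR and CHEK1, was called higher at 96 h (1.04).

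In the UT time course, at 96 h against 8 h, 29 of 32 replication genes and 24 of 24 mitosis genes were called higher, with medians of 2.14 and 2.99. Of the other 26 recombination and Fanconi genes, 14 were called higher and 1 lower, with a median of 1.1. None of the 9 end joining genes was called, and their median was 0.44.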

How the data were processed

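THP-1 RNA was hybridized to 19 Agilent one-colour arrays, and each array counts as 1 replicate, grouped by its label. To obtain intensity values, the authors extracted spot signals with Agilent Feature Extraction, with detrending and surrogates on and local background correction off. The file headers give version 10.5.1.1 for the grid placement step, and the paper's methods name a different version. The deposited log2 values of the series matrix are the authors' 75th percentile shift of the same signals and served as an alternative. Probes were designed on an earlier build than GRCh38.p14, so no probe position is given.

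Spots marked as outliers were set missing, spots of a probe were averaged as log2 of the processed signal, and the 75th percentile of the array was subtracted. This gave 50238 probes and 31033 gene names, and a gene took its probe of highest mean. Between 57.5% and 72.8% of probes per array were well above background, and the number of arrays limits the precision. A fold is written as "at least" where no array of 1 group was above background.

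limma 3.58.1 in R 4.3.3 (lmFit and eBayes, 8 group means, 2-sided) gave all tests, since groups of 2 or 3 arrays give the Student t-test of the methods little to estimate the spread from. The t-test was run as an alternative. The fit was tested on simulated data. Figures were drawn with Python 3.11 and matplotlib 3.10.9.

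The genes, their roles, the related lists and the markers were chosen with earlier results of these data known. All 33 genes could be named; values of every array were given for those called between treatments and for BRCA1, BRCA2, FANCD2, ATM, ATR and CHEK1, and for other genes where a result rests on single arrays. Genes of the related lists were named only if called between treatments. The alternatives were other background corrections, scalings, filters, probe rules, models, blocks and each array left out; fits within 1 slide were added after seeing the data. Same-numbered UT and vit C arrays of a time were checked for pairing: their deviations from the group means correlated between -0.12 and 0.10 over 8 pairs, so the numbers do not pair the arrays. Replicate numbers are those of the sample titles; the descriptions number the 48 h arrays 2 and 3 in both treatments, which leaves the same pairs.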

Additional observations from a re-analysis of the deposited data

How the results depend on the processing

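The 4 calls at 24 h were the least stable count. It was 0 with normexp background correction, 0 in the Student t-test of the methods, 0 with only the 2 groups in the fit, 0 with the slide as a fixed block, 2 with array weights, and 0 to 4 with 1 array left out. As a fixed block, slide 1 is tied to slide 2 only by the UT arrays at 96 h, and the vit C arrays at 96 h had to be left out. The t-test also gave 0 at 48 h against 8 h in UT cells, 1 at 96 h against 8 h in UT cells and 0 at 24 h against 8 h in vit C-treated cells, where limma called 15, 20 and 7. The F test across times, with 0 genes, passed for 1 with normexp, 1 with quantile normalization, 4 with signals floored at 20, 2 with dim genes left out, 1 with an intensity trend, and 0 to 2 with 1 array left out (2 without UT replicate 1 or UT replicate 3 at 96 h, 1 without UT replicate 1 at 48 h). Leaving out 1 array gave 9 to 15 calls at 48 h and 18 to 21 at 96 h in UT cells, the 9 being without UT replicate 1 at 8 h. It gave 5 to 8, 14 to 16 and 19 to 22 calls at 24, 48 and 96 h in vit C-treated cells, and 0 to 1 at 48 h and at 96 h between treatments. The causes were not tested. In the other settings run, these counts stayed within 1.5 times (10 against 15 with normexp at 48 h in either treatment), and the counts of 0 at 8 h, for the average and at 24 h in UT cells stayed 0 in every setting that gave them.

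With the replicate number as a block, though the pairing check did not bear it out, 5 genes were called at 24 h (RAD54L in addition), and 0 at 8, 48 and 96 h. Of 16 arrays with a same-numbered partner, 5 correlated best with it. No call of a single gene changed sign in any setting.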
